A study of Mus musculus with 1 sample.

Results

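Platelets carry ready-made secretory granules and a set of adhesion receptors, and the genes for both are switched on as megakaryocytes form from blood stem cells. The 10 genes described here were Pf4, Ppbp, Vwf and Treml1, whose products sit in or on granules, and Gp1bb, Gp9, Gp5, Gp6, Itga2b and Itgb3, whose products are surface receptors. They were chosen by symbol, and each of the 10 had its own row among the 32285 genes of the count matrix. The matrix came from 1 single-cell RNA-seq library of progenitors, sorted from marrow as lineage-negative and cKit-positive from femora and tibiae of C57BL/6 mice. These were the control mice of a study of the chromatin remodelling protein BRD9: they carried floxed Brd9 alleles (Brd9fl/fl), the label names no Cre, and they had received pIpC (20 mg/kg, 3 doses) 8 weeks before harvest, as the mutant mice had. The labels name a CD45.2(+) donor and a CD45.1(+) CD45.2(-) recipient, while the study's methods describe sorted cells of control mice without naming a transplant, and the number of mice is not given in the sources used here. A mutant library was not analysed here. With 1 library there was no replicate and no test between conditions, so every interval below covers counting error of unique molecular identifiers (UMIs, 1 per captured molecule) and neither differences between mice nor the clumping of UMIs in a few cells.

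Megakaryocytes store proteins in alpha granules, among them the chemokines platelet factor 4 (Pf4) and pro-platelet basic protein (Ppbp), and the adhesive protein von Willebrand factor (Vwf), which endothelial cells also make. Treml1 encodes TLT-1, a receptor held in the alpha granule membrane. Von Willebrand factor on a damaged vessel wall is caught by the glycoprotein Ib-IX-V complex, to which Gp1bb, Gp9 and Gp5 contribute subunits alongside Gp1ba. Gp6 encodes the collagen receptor glycoprotein VI, and Itga2b and Itgb3 encode the subunits of the integrin that binds fibrinogen. Some blood stem cells are known to carry transcripts of such genes, Vwf above all, which is often called platelet priming.

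The members lie on 6 chromosomes of the mouse genome (GRCm38, GENCODE gene bounds). Ppbp (chr5:90768518-90770063) and Pf4 (chr5:90772435-90773383) are neighbours on the plus strand of chromosome 5, with 2371 bases between them. Gp9 (chr6:87778072-87779768) and Vwf (chr6:125546774-125686679) lie on chromosome 6, Gp1bb (chr16:18620317-18622403) and Gp5 (chr16:30307685-30310779) on chromosome 16, and Itga2b (chr11:102453297-102470122) and Itgb3 (chr11:104608000-104670476) on chromosome 11. Gp6 lies at chr7:4363965-4397744 and Treml1 at chr17:48359916-48367176. Exons of Gp1bb overlap those of Sept5 on the same strand, so that reads from the shared stretch could not be given to either gene, and its level is uncertain.

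RefSeq start sites and promoter sequence (GRCm38.p6) matched 8 of the 10 members; Vwf and Itgb3 had no entry. The 250 bases before the start were searched on both strands for 4 words: AGATAA and TGATAA, which GATA factors bind, and CGGAAG and AGGAAG, which ETS factors bind. A GATA word was present before 2 of the 8 genes (Gp5, with 2 copies, and Gp6), against 16.6% of 32851 promoters of the same length. An ETS word was present before 5 of the 8 genes (Pf4, Gp1bb, Gp9, Gp5 and Itga2b), against 39.2% of all promoters. A match is only a description of the letters. The RefSeq start of Itga2b lies inside the GENCODE gene, so its window covers part of that gene. The stretches of 4 members are given because Gp9 and Gp5 stand early, and the neighbours Pf4 and Ppbp late, in the order of levels described below. They are written 5′ to 3′ on the gene's strand, with the searched words, on either strand, in capitals.

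Gp9, chr6:87777820-87778069, plus strand: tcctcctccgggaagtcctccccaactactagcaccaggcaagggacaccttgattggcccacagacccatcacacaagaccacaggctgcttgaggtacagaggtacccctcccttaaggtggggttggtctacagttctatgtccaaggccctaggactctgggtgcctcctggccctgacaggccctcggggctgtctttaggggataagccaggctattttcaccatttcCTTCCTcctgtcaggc

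Gp5, chr16:30310782-30311031, minus strand: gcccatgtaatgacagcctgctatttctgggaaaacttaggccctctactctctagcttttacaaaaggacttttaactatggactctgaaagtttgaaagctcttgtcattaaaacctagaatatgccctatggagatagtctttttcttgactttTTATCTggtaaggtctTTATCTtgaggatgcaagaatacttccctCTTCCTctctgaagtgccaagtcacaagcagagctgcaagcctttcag

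Pf4, chr5:90772185-90772434, plus strand: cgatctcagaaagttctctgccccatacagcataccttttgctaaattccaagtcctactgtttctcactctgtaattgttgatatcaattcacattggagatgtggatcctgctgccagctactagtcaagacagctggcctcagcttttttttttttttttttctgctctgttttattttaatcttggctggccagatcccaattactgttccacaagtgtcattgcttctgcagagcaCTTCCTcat

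Ppbp, chr5:90768268-90768517, plus strand: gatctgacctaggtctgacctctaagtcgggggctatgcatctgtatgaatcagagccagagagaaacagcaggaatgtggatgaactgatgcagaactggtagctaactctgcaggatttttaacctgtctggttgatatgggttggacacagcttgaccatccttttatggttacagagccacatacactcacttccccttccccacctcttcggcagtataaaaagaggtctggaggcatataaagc

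In these windows Gp9 and Pf4 each held a lone ETS word on the reverse strand, 16 to 11 and 9 to 4 bases before the start. Gp5 held both GATA words between 93 and 72 bases before its start, with an ETS word at 48 to 43, and Ppbp held none of the words.

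Of 8817 deposited barcodes, 7645 (86.7%) passed the study's stated filter on UMIs, genes and mitochondrial share, with a median of 18696 UMIs and 151852381 UMIs in all. Cells were clustered without the 10 members and without Procr, a surface receptor gene used here as a stem cell mark, and the 17 clusters were named from markers that held none of them. A cluster of 940 cells was named megakaryocyte-like, led by Timp3, Rab27b and Cavin2. A cluster of 690 cells had the highest mean of the stem cell markers Hlf, Mecom, Mllt3, Ly6a, Fgd5, Ctnnal1, Slamf1 and Meis1, all 8 of which were raised in it, but its 10 leading genes held none of them and held Cldn5, an endothelial marker, so that it received no cell type name and is called the stem-marker cluster. Levels are given as CPM, the UMIs of a gene divided by all UMIs of the cells summed and multiplied by the same constant in every group (counts-per-million scale). Since UMIs are counted at the 3′ end of transcripts, these levels do not scale with gene length. Shares of cells are given after each cell was thinned at random to 5000 UMIs, which 7546 cells allowed.

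The members were concentrated in the megakaryocyte-like cells. Of all UMIs in kept cells, these 12.3% of cells held 92.0% of Pf4, 90.4% of Ppbp, 90.03% of Gp1bb, 86.7% of Treml1 and all 15 of Gp6. The shares were lower for Vwf (71.2%), Itga2b (68.1%), Gp9 (61.4%), Gp5 (58.5%) and Itgb3 (56.7%), genes with UMIs in other classes as well. All 9 members with at least 50 UMIs were 2-fold or more higher in megakaryocyte-like cells than in all other cells, where 15.2% of 13479 genes were; Gp6 had too few UMIs for that count. The classes were named from genes expressed with the members, so these folds describe the class.

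Among granule genes, Pf4 was by far the most abundant. It stood at 4113 CPM (95% interval 4081 to 4146) in megakaryocyte-like cells and at 39.0 CPM in the others, 106-fold apart (103 to 109). Its neighbour Ppbp reached 20.1 CPM (17.9 to 22.5), 86.1-fold (59.7 to 128) above the other cells. The difference between these adjacent chemokine genes was therefore one of level more than of restriction. Vwf stood at 182 CPM (176 to 189), 22.5-fold higher (21 to 24.2), and Treml1 at 97.1 CPM (92.2 to 102), 59.3-fold higher (51.5 to 68.6).

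Among receptor genes, Itga2b led with 459 CPM (448 to 470), 19.5-fold (18.7 to 20.3) above the other cells, while its integrin partner Itgb3 stood at 67.7 CPM (63.6 to 72.0), 12-fold higher (10.9 to 13.1). In the Ib-IX-V complex, Gp9 (96.9 CPM, 92.0 to 102) and Gp5 (92.2 CPM, 87.4 to 97.2) stood close together with overlapping intervals. Gp1bb was lower at 22.9 CPM (20.5 to 25.4), and the fourth subunit gene, Gp1ba, stood at 14.8 CPM. The folds over other cells were 14.5 (13.3 to 15.8) for Gp9, 12.9 (11.9 to 14) for Gp5 and 82.4 (58.8 to 118) for Gp1bb. Gp6, the collagen receptor gene, gave 15 UMIs in 11 megakaryocyte-like cells, or 1.0 CPM (0.56 to 1.65), and none elsewhere. Set against a limit of 3 UMIs over all other cells its fold was 45.6, and the lower limit of the exact interval was 32.7. Its place in any order below rests on too few molecules to be read.

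**Figure D1:**
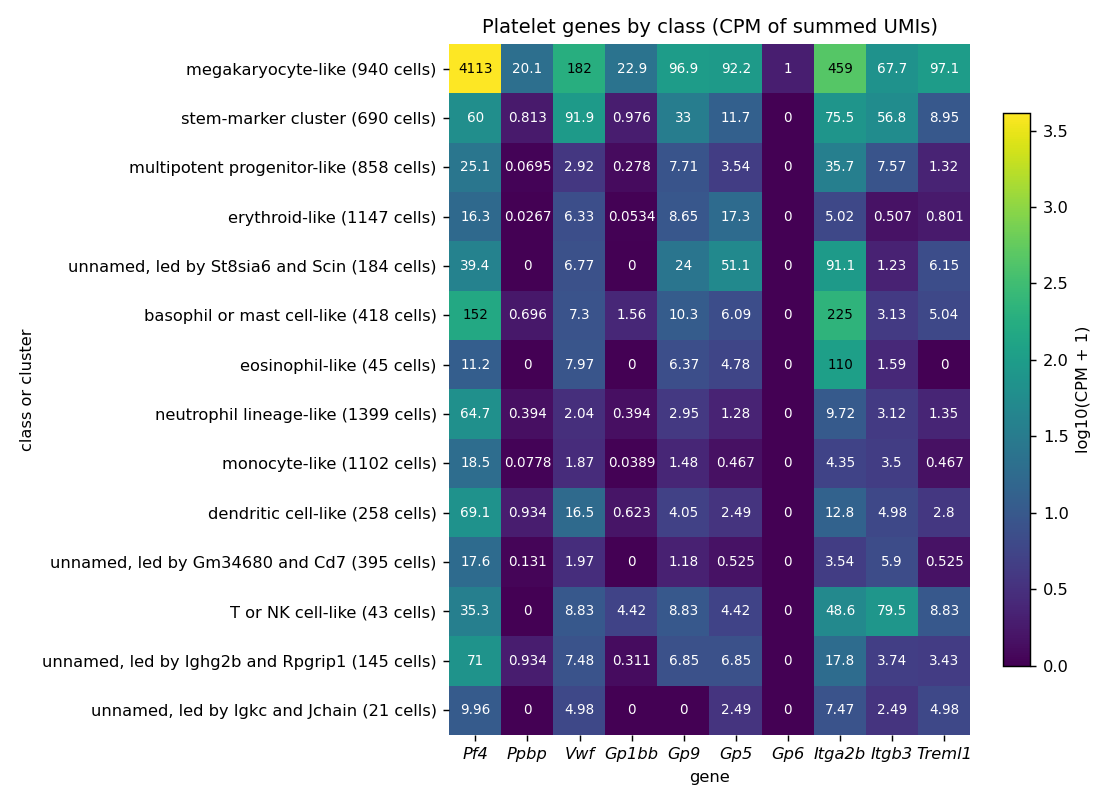
Level of each of the 10 genes (columns) in every class or unnamed cluster (rows, with its number of cells), as CPM of summed UMIs printed in each cell and as log10(CPM + 1) in colour. The megakaryocyte-like row is highest in all columns but Itgb3, whose highest value is in 43 T or NK cell-like cells, and the stem-marker cluster stands out for Vwf (91.9) and Itgb3 (56.8).

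Other genes of the same functions followed the members in most but not all cases. Of the genes counted here, Clec1b, Gp1ba, Rab27b, Cavin2, Plek, Mmrn1, Alox12, Nrgn, Gng11 and Rgs18 were among the markers that named the megakaryocyte-like class. Their folds therefore only describe that class. All 11 measurable genes among 12 other platelet receptors were 2-fold or more higher in megakaryocyte-like cells, with a median of 9.88-fold against 1.16-fold over all genes measured. The highest were F2rl2 (74.4-fold), a protease-activated receptor, Clec1b (24.8), the podoplanin receptor, and Gp1ba (13.2). The lowest were P2ry1 (3.69), an ADP receptor, Itga2 (4.63), a collagen-binding integrin subunit, and F2rl3 (4.78), a thrombin receptor. Of 11 measurable genes for granule content and release, 8 passed 2-fold, led by Timp3 (54.8), a protease inhibitor, Rab27b (33.8), a GTPase of granule secretion, and Cavin2 (30.7), a caveolar coat protein. The 3 that did not were Nbeal2 (1.95), Vps33b (1.54), both needed to build alpha granules, and Srgn (0.96), a granule proteoglycan also made by myeloid cells.

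All 6 measurable genes of the cytoskeleton and signalling list passed, from Alox12 (20.0), a platelet lipoxygenase, Nrgn (13.7) and Gng11 (7.24) down to Rgs18 (5.12), Fyb (4.2) and Fermt3 (2.64), an activator of integrins. Of 11 transcription regulators 8 passed, with Meis1 (6.81) and Fli1 (5.0) among the highest, and Runx1 (1.85), Gfi1b (1.54) and Gata1 (1.22) lowest and under 2-fold. Gata1 is shared with the erythroid lineage, which was present here. Over the 17 clusters, the genes whose log2(CPM + 1) followed that of the summed members most closely, among 5378 compared, included Rab27b (Pearson r = 0.93), Cavin2 (0.87), Timp3 (0.87) and Med12l (0.85). These values are a description over clusters of 1 library, and Rab27b and Cavin2 were also among the genes used to name the class.

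Outside the megakaryocyte-like cells, different members appeared in different classes. In the 418 cells named basophil or mast cell-like, Itga2b stood at 225 CPM (213 to 237) and was seen in 65.8% at 5000 UMIs (60.9 to 70.4), next to 79.0% of megakaryocyte-like cells. Itgb3, the gene for its partner subunit, was at 3.13 CPM (1.86 to 4.95) in the same cells, so the levels of the integrin's subunit genes were far apart there. Eosinophil-like cells showed the same contrast in 45 cells, with Itga2b at 110 CPM (85.5 to 139) and 1 UMI of Itgb3.

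Itgb3 in turn reached its highest level, 79.5 CPM (47.1 to 126), in 43 T or NK cell-like cells, on 18 UMIs and at a median depth of only 3429 UMIs. Its interval overlaps the megakaryocyte-like level. Under a stricter cell filter all 10 members were highest in megakaryocyte-like cells. That filter asks for at least 5000 UMIs, which only 15 of the 43 T or NK cell-like cells had, so it cannot decide on Itgb3 in that class.

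Gp5 was seen in erythroid-like cells, at 17.3 CPM (16 to 18.7). The level was uneven between their clusters: 30.9 CPM (28.3 to 33.7) in the one led by Gm15915 and 6.75 CPM (5.68 to 7.95) in the one led by haemoglobin genes. An unnamed cluster of 184 cells led by St8sia6 had Gp5 at 51.1 CPM (40.7 to 63.3) and Itga2b at 91.1 CPM (77.0 to 107), with Itgb3 at 1.23 CPM (0.15 to 4.45) and no UMI of Ppbp or Gp1bb. The other complex subunit gene Gp9 was at 24.0 CPM (17.1 to 32.8) in that cluster and at 8.65 CPM (7.74 to 9.65) in erythroid-like cells.

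Pf4 UMIs outside the megakaryocyte-like class were clumped. In neutrophil lineage-like cells Pf4 averaged 64.7 CPM, but 14 of 1399 cells held 74.6% of its UMIs there. These 14 cells had a median of 32068 UMIs, 4 of them were doublet calls, and they also carried the 13 other megakaryocyte markers at 938 CPM beside neutrophil markers at 21813 CPM. The lowest share of cells with a Pf4 UMI in a large class was 3.67% (erythroid-like, median depth 33436), and 3.74% of monocyte-like cells had one. Free RNA in droplets or misassigned UMIs could be read as Pf4 at such shares, which was not tested. In the unnamed St8sia6 cluster, at a median depth of 8042 UMIs, the share was 5.68%, so the lower shares are no limit for shallower cells.

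To follow the order in which the genes reached their high levels, cells were placed in bands by their own Pf4 UMIs after thinning. The bands held 6466 cells with 0, 411 with 1, 154 with 2 to 4, 80 with 5 to 9, 121 with 10 to 19 and 314 with 20 or more. The share of megakaryocyte-like cells was 4.39%, 20.9%, 63.0%, 82.5%, 80.2% and 96.8% in turn. Bands are an order of Pf4 level and not a time course, and the class makeup of the low bands differs from that of the high ones.

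The other 9 members were all higher in the top band than at 0, but they did not climb in step with each other. From the band at 0 to the band at 20 or more, Itga2b went from 26.6 to 672 CPM, Vwf from 8.12 to 305 CPM, Gp9 from 7.56 to 126 CPM and Ppbp from 0.14 to 45.8 CPM. In cells with 2 to 4 Pf4 UMIs, Gp9 already stood at 49.3% of its top-band level, Itga2b at 35.6%, Gp5 at 33.3% and Itgb3 at 31.4%. Gp1bb was at 28.2%, Treml1 at 24.4% and Vwf at 23.5% of theirs. Ppbp stood at 2.69% (0.55 to 7.95), on 3 UMIs. Pf4, whose own UMIs set the bands, was at 5.71%.

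As cells, 64.3% of those in the band of 2 to 4 had an Itga2b UMI at 5000 UMIs (56.2 to 71.8) and 0.65% had a Ppbp UMI (0.02 to 3.56). In the top band the shares were 94.9% (91.9 to 97.1) and 13.7% (10.1 to 18.0). Even among cells with the most Pf4, most gave no Ppbp molecule at this depth.

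**Figure D2:**
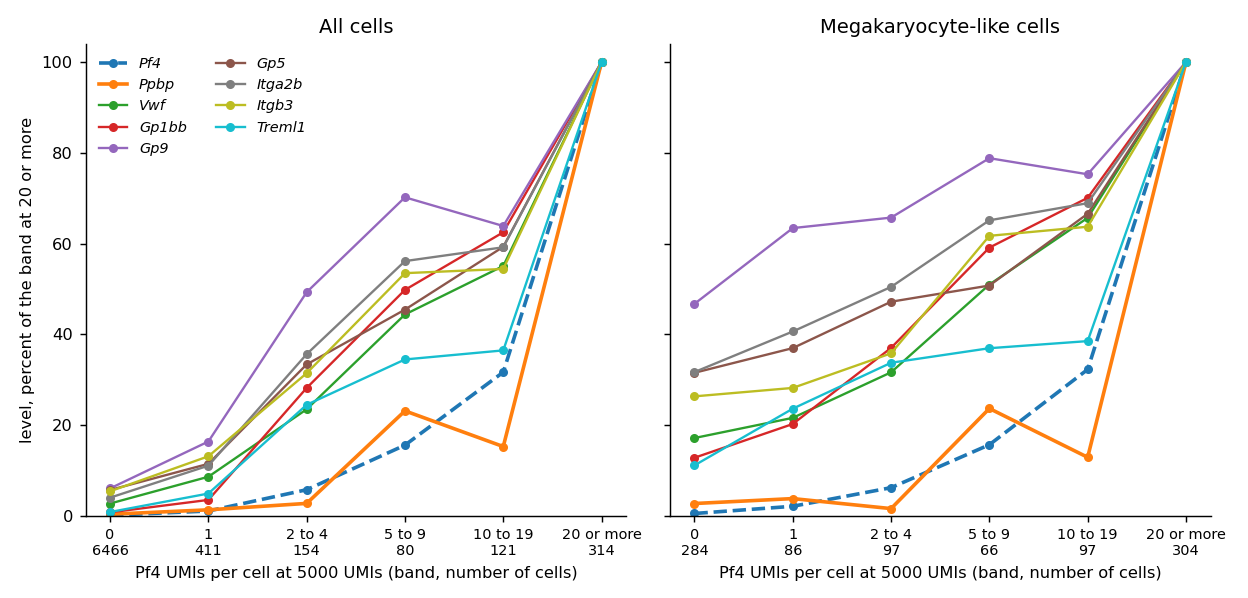
Level of each member but Gp6 (y axis, percent of its own level in the top band) over bands of Pf4 UMIs per cell after thinning (x axis, with the number of cells), in all cells and in megakaryocyte-like cells alone. Gp9 lies above the other genes below the top band, reaching 49.3% at 2 to 4 Pf4 UMIs in all cells, while Ppbp (2.69% there) and Pf4 lie lowest and Treml1 stays under 40% until the top band.

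An onset index was taken as a gene's level in cells with 1 to 4 Pf4 UMIs (565 cells) as percent of its level in cells with 10 or more (435 cells). Gp9 had the highest index, 27.6% (24.1 to 31.5). Itgb3 (20.3%, 17.1 to 23.9), Itga2b (19.5%, 18.3 to 20.9) and Gp5 (19.2%, 16.5 to 22.2) came next and could not be told apart. Vwf (14.1%, 12.6 to 15.8), Treml1 (12%, 10.1 to 14.1) and Gp1bb (11%, 7.52 to 15.7) followed, again with neighbours that did not differ beyond counting error. Ppbp came last at 2.11% (0.84 to 4.41), from 7 UMIs in the low bands.

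The steps between these groups were larger than counting error. The index of Gp9 was 1.36 times that of Itgb3 (1.10 to 1.68), that of Gp5 was 1.36 times that of Vwf (1.13 to 1.63), and that of Gp1bb was 5.21 times that of Ppbp (2.28 to 11.9). Within the groups the intervals of the ratios held 1: Itgb3 over Itga2b 1.04 (0.87 to 1.24), Itga2b over Gp5 1.02 (0.87 to 1.19), Vwf over Treml1 1.18 (0.97 to 1.44) and Treml1 over Gp1bb 1.09 (0.74 to 1.60). Over all cells the order thus ran from Gp9, through the fibrinogen receptor genes and Gp5, then Vwf, Treml1 and Gp1bb, to the chemokine gene Ppbp, so that subunit genes of the Ib-IX-V complex stood in 3 of these groups. Within megakaryocyte-like cells Itgb3 came apart from Itga2b, as described below. With 9 members pooled the index was 17.7% (16.9 to 18.5).

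The low bands hold cells of several classes, so the index was also taken within megakaryocyte-like cells, a choice made after seeing the data. There, 284 cells had no Pf4 UMI at 5000 UMIs, and yet Gp9 stood at 46.7% of its top-band level in them, Itga2b at 31.7%, Gp5 at 31.5% and Itgb3 at 26.3%. Vwf was at 17.1%, Gp1bb at 12.8%, Treml1 at 11.1% and Ppbp at 2.67%. The index was highest for Gp9 (68.1%, 58.3 to 79.2), which was 1.39 times that of Itga2b (1.17 to 1.64). Itga2b (49.1%) and Gp5 (45.7%) came next, then Itgb3 (34.9%), Treml1 (33.3%), Gp1bb (31.3%) and Vwf (29.1%), whose neighbours were not separable. Ppbp was last again at 3.09% (0.63 to 9.12). Within the class, Vwf stood in the seventh place of 8 instead of the fifth, but in neither setting was it separable from Treml1 or Gp1bb. Itgb3 now stood apart from Itga2b (Itga2b over Itgb3 1.41, 1.11 to 1.77). The stem-marker cells, which carry Vwf and Itgb3 with little Pf4, make up 105 of the 565 low-band cells in the index over all classes. Their part in these moves was not tested.

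Ordering cells by the 13 other megakaryocyte markers instead of Pf4, among cells with a Pf4 UMI, let Pf4 be placed as well. Its index was 3.12% (2.99 to 3.25), beside 3.09% (1.58 to 5.48) for Ppbp and 3.24% (1.70 to 5.62) for Gp1bb, and these 3 were not separable. Gp9 led again with 12.9% (10.9 to 15.1), 1.32 times the index of Gp5 (1.05 to 1.67). Gp5 (9.73%), Itgb3 (7.99%) and Itga2b (7.62%) came next. Gp5 was 1.28 times Itga2b (1.05 to 1.55), and Itgb3 was separable from neither. Itga2b stood 1.46 times above Vwf (5.21%, with a ratio interval of 1.22 to 1.75). Ppbp, on 12 UMIs in the low cells, was not separable from Treml1 (ratio of Treml1 to Ppbp 1.35, 0.72 to 2.52) or Vwf (1.69, 0.93 to 3.07) either, so its place at the end is not shown on this axis. The cells were chosen for a Pf4 UMI, which bears on the index of Pf4, and the axis holds Gp1ba, the partner of Gp9, Gp5 and Gp1bb.

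**Figure D3:**
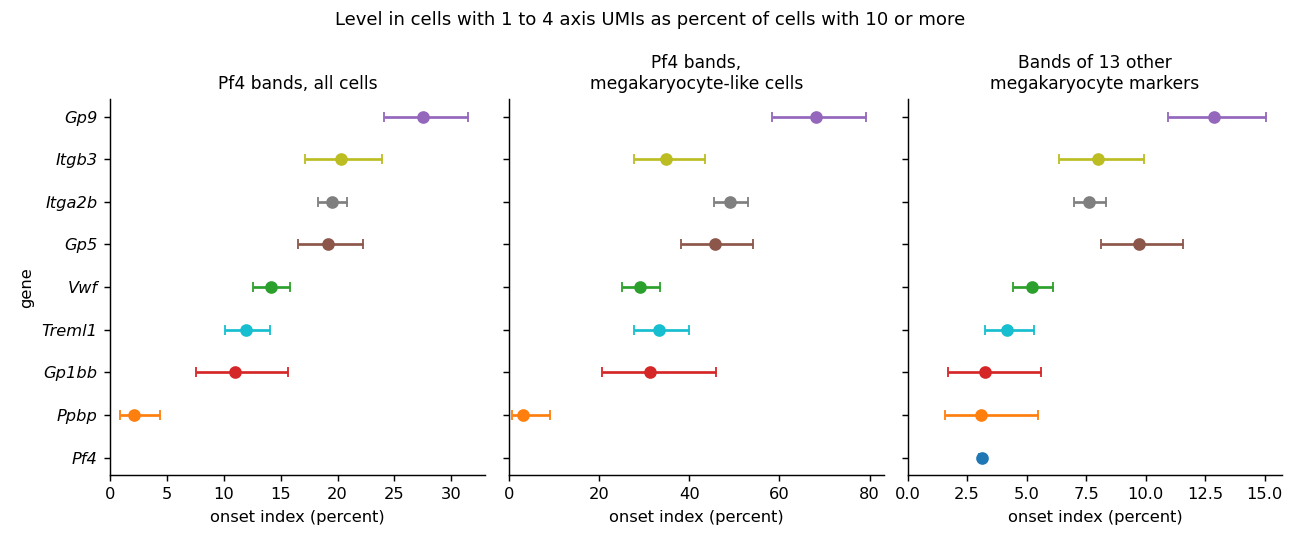
Onset index of each gene (x axis, percent, with 95% counting intervals): its level in cells with 1 to 4 UMIs on the ordering axis as percent of its level in cells with 10 or more. The ordering axis is Pf4 in all cells, Pf4 in megakaryocyte-like cells, or 13 other megakaryocyte markers in Pf4-positive cells; Gp9 is highest in each (27.6%, 68.1% and 12.9%) and the value of Ppbp is lowest in each (2.11%, 3.09% and 3.09%), though on the last axis its interval overlaps those of Pf4, Gp1bb, Treml1 and Vwf.

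Along the Pf4 bands the markers of other lineages moved too, and their part in the indices was not tested. The summed neutrophil markers went from 11884 CPM at 0 Pf4 UMIs to 4596 at 2 to 4 and 739 at 20 or more, and the erythroid markers from 2814 to 1397 and 708. Doublet calls made up 3.25% of cells at 0, 11.2% at 5 to 9, 8.26% at 10 to 19 and 3.50% at 20 or more. With doublet calls removed the pooled index was 17.3%. Depth was 19429 UMIs (median) at 0, 13278 to 16427 in the bands from 1 to 19 and 18952 in the top band.

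Among the stem-like cells, a UMI of Procr was found in 454 of the 690 cells of the stem-marker cluster, or 64.3% of the 706 Procr-positive cells in the library. Their stem cell markers were abundant, with Hlf at 544 CPM (522 to 567) and in 426 of the 454 cells, and Mecom at 184 CPM (171 to 197). Endothelial cells, which also carry Procr and Vwf, were looked for by their markers: Cdh5 gave 0 UMIs in the 454 cells, which allows up to 0.73 CPM, Flt1 gave 2 and Stab2 gave 3, while Tie1 (60.01 CPM), Cldn5 (79.1 CPM), Emcn (21.8 CPM) and Kdr (10.5 CPM) were present. The median depth was 8114 UMIs, less than that of most other classes, and 448 of the 454 cells could be thinned.

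Of these 448 Procr-positive cells, 73.4% had a UMI of at least 1 member at 5000 UMIs (69.1 to 77.5). At least 2 members were seen in 33.7% (29.3 to 38.3) and at least 3 in 9.82% (7.23 to 13). In neutrophil lineage-like and monocyte-like cells thinned to the same depth, 9.83% had at least 1 member (8.69 to 11.1) and 1.56% at least 2. Multipotent progenitor-like cells lay between with 29.4% (26.4 to 32.6), and megakaryocyte-like cells reached 94.7% (93.0 to 96.0), with at least 3 members in 63.7% of them. Erythroid-like cells had at least 1 member in 20.3% (18.1 to 22.8). Of basophil or mast cell-like cells, 65.8% had an Itga2b UMI, so at least that share had a member. The 227 cells of the stem-marker cluster that had no Procr UMI and could be thinned had intervals overlapping those of the Procr-positive ones, with at least 1 member in 71.4% (65.01 to 77.2), at least 2 in 40.5% (34.1 to 47.2) and at least 3 in 15.9% (11.4 to 21.3). Platelet gene transcripts were thus seen in most cells of the cluster, with or without a Procr UMI.

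The order of the genes by share of Procr-positive cells differed from that by share of megakaryocyte-like cells. In the latter Itga2b (79.0%), Pf4 (69.6%) and Vwf (43.1%) led and Itgb3 (22.9%) was among the lower genes. Vwf was seen in 33.0% of the Procr-positive cells (28.7 to 37.6), Itga2b in 25.0% (21.1 to 29.3) and Itgb3 in 24.8% (20.8 to 29.0). Pf4 was seen in 14.7% (11.6 to 18.4) and Gp9 in 13.6% (10.6 to 17.1). Gp5 (4.46%) and Treml1 (2.68%) were rare. Gp1bb was seen in 3 cells, Ppbp in 2, and Gp6 in none, which at a limit of 3 cells allows a share of up to 0.67% of cells with a UMI. Without thinning the shares were higher, among them 49.1% for Vwf, 39.2% for Itgb3, 36.3% for Itga2b and 20.9% for Pf4.

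**Figure D4:**
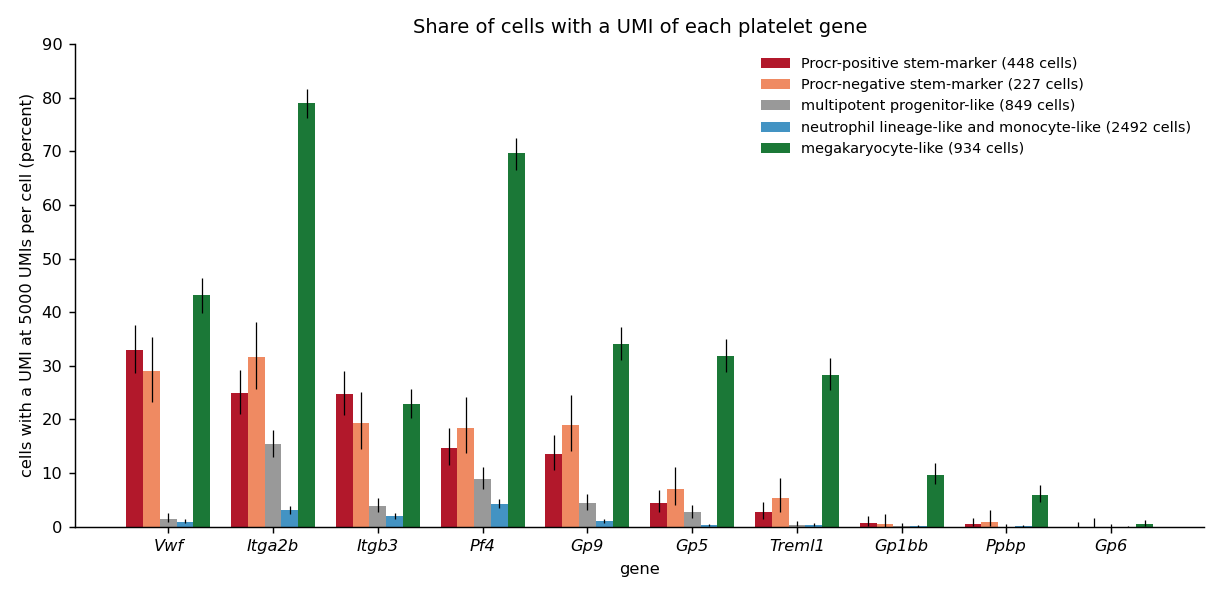
Share of cells with at least 1 UMI of each gene after thinning to 5000 UMIs per cell (y axis, percent; bars, with exact 95% binomial intervals) in 5 sets of cells. Itgb3 in Procr-positive stem-marker cells (24.8%) is near its megakaryocyte-like share (22.9%), and Vwf (33.0%) is below its own (43.1%). Gp5, Treml1, Gp1bb and Ppbp are far below theirs.

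Measured against the megakaryocyte-like level, the members spread widely in Procr-positive cells. Itgb3 stood at 62.7 CPM (55.3 to 70.9), which is 92.7% (80.5 to 106) of its megakaryocyte-like level. Vwf reached 54.3% (48.8 to 60.3), at 99.0 CPM (89.5 to 109), and Gp9 31.9% (26.3 to 38.2), at 30.9 CPM. Itga2b, with 67.1 CPM, stood at 14.6% (12.9 to 16.5), Gp5 at 9.30% (6.45 to 13) and Treml1 at 7.57% (5.09 to 10.9). Gp1bb (5 UMIs) and Ppbp (3 UMIs) stood at 5.35% (1.73 to 12.6) and 3.65% (0.75 to 10.8). Pf4 was lowest, at 62.7 CPM or 1.52% (1.34 to 1.72) of its megakaryocyte-like level. The integrin subunit genes, 6.78-fold apart in megakaryocyte-like cells, were at similar levels here, with Itga2b 1.07 times Itgb3.

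Against neutrophil lineage-like and monocyte-like cells, 6 of the 7 members with at least 50 UMIs were 2-fold or more higher in the Procr-positive cells, where 31.9% of 11808 genes were. Vwf was 50.5-fold higher (40.8 to 63.0), Itgb3 19-fold (15.7 to 23.1) and Gp9 13.5-fold (10.5 to 17.5). Gp5 (9.44-fold), Itga2b (9.24-fold) and Treml1 (7.79-fold) followed. Pf4 was the exception at 1.44-fold (1.26 to 1.64), where the myeloid Pf4 came largely from the few high cells described above. The Procr-positive cells were shallower than the myeloid cells (median 21879 UMIs), so free RNA would weigh more in their CPM. The unnamed St8sia6 cluster, at a like median depth of 8042 UMIs, held Vwf at 6.77 CPM, Itgb3 at 1.23 and Pf4 at 39.4, below the Procr-positive cells. Its Gp9 (24.0 CPM) and Treml1 (6.15 CPM) had intervals overlapping theirs, and its Itga2b (91.1 CPM) and Gp5 (51.1 CPM) were above theirs.

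How the UMIs were shared between cells also differed by gene. The 10 cells with most UMIs held 60.2% of the 256 Pf4 UMIs, and 1 cell alone held 66 of them, while 68 of the 95 cells with Pf4 had a single UMI. For Itgb3, with the same number of UMIs, the 10 highest cells held 14.5%, and for Vwf 12.6% of 404. No Procr-positive cell had more than 6 Vwf UMIs or 5 Itgb3 UMIs, against 50 and 23 in the highest megakaryocyte-like cells.

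**Figure D5:**
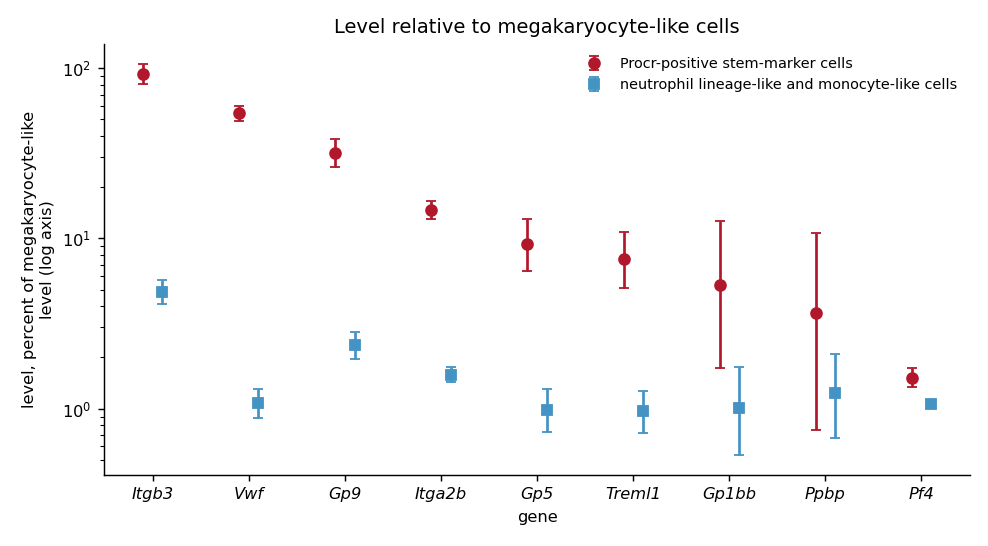
Level of each member but Gp6 in Procr-positive stem-marker cells and in neutrophil lineage-like and monocyte-like cells, as percent of its level in megakaryocyte-like cells (y axis, log scale, with 95% counting intervals). Itgb3 (92.7%) and Vwf (54.3%) are nearest to the megakaryocyte-like level in the Procr-positive cells, and Pf4 (1.52%) is nearest to the myeloid cells.

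Whether members were seen in the same Procr-positive cell was measured for 6 pairs of genes. In each the share was higher with the given gene than without it, with overlapping intervals. Itga2b was present in 27.0% of the 111 cells with an Itgb3 UMI (19 to 36.3) and in 24.3% of the 337 cells without (19.8 to 29.3). With Pf4 as the given gene, Itga2b was present in 31.8% of 66 cells (20.9 to 44.4) and in 23.8% of 382 (19.6 to 28.4). In the more numerous megakaryocyte-like cells the intervals of these pairs did not overlap: Itga2b was seen in 88.3% of 214 cells with Itgb3 (83.2 to 92.3) against 76.2% of 720 without (73.0 to 79.3), and in 86.0% of 650 cells with Pf4 against 63.0% of 284 without. The difference between the sets of cells was not tested. There, Ppbp was seen in 8.0% of cells with Pf4 (6.03 to 10.4) and 1.41% of cells without (0.39 to 3.57).

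Within the stem-marker cluster, cells with and without a Procr UMI differed in opposite directions by gene, with none of the 7 measurable members 1.5-fold or more higher in Procr-positive cells, where 3.07% of 9415 genes were. Itgb3 was 1.39-fold higher (1.09 to 1.78) and Vwf 1.27-fold higher (1.05 to 1.53) in the 454 cells with Procr. Gp5, at 8.57 against 17.9 CPM, had a ratio of 0.48 (0.29 to 0.78), and Itga2b, at 67.1 against 92.1 CPM, a ratio of 0.73 (0.60 to 0.88). For Pf4 (1.15, 0.91 to 1.44), Gp9 (0.83, 0.62 to 1.11) and Treml1 (0.61, 0.35 to 1.08) the interval held 1. The cells without Procr had a like depth (median 8283 UMIs), and a missing UMI does not show that a cell lacks the transcript.

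The members were also measured in Procr-positive cells of other classes. In 51 Procr-positive megakaryocyte-like cells Pf4 stood at 1122 CPM, Itga2b at 258 CPM, Vwf at 119.97 CPM and Itgb3 at 53.1 CPM. In 100 Procr-positive multipotent progenitor-like cells Vwf was at 6.30 CPM (2.88 to 12), against 2.92 CPM in the whole class, and Itgb3 at 12.6 CPM (7.47 to 19.9), against 7.57 CPM, with Pf4 at 23.1 CPM. Both genes were thus well below the stem-marker cells there.

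Markers of other lineages were also measured in the Procr-positive stem-marker cells, against their own class. The median marker stood at 3.15% of its level in the class it marks for 9 erythroid genes, 1.10% for 7 neutrophil genes, 0.92% for 8 monocyte genes, 0.40% for 8 basophil or mast cell genes and 4.39% for 6 dendritic cell genes. It was 10.2% for 6 multipotent progenitor genes, above the median of 8.43% over the 10 members, and 38.2% over 10 other megakaryocyte markers. Among the latter, Gng11 (279 CPM, 141% of the megakaryocyte-like level) and Mmrn1 (211 CPM, 126%), a granule protein that binds factor V, were higher in Procr-positive cells than in megakaryocyte-like ones, while Gp1ba stood at 1.71 CPM (11.6%). In the Ib-IX-V complex, Gp9 was at 30.9 CPM in Procr-positive cells with Gp5 at 8.57, Gp1ba at 1.71 and Gp1bb at 1.22.

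Last, Procr-positive cells of the stem-marker cluster were split by a Vwf UMI after thinning, into 148 cells with and 300 without, at like depth (medians 8370 and 8058 UMIs). None of the 4 measurable members was 1.5-fold or more higher in the Vwf-positive cells, where 2.63% of 8239 genes were. Some members passed under other settings, as given in the section on processing. Itga2b was 1.34-fold higher (1.04 to 1.72) and Itgb3 1.25-fold (0.96 to 1.62), and Gp9 stood at 0.82 (0.54 to 1.22). Pf4 was at 77.3 against 55.2 CPM, 1.40-fold (1.08 to 1.81), but 66 of its 105 UMIs on the positive side came from 1 cell, and without that cell the ratio was 0.53 (0.36 to 0.76). Without the same cell Itga2b was 1.25-fold higher (0.97 to 1.61), an interval that held 1. The non-members of highest fold included Neo1 (2.98), Gm42047 (2.83), Rdh10 (2.51) and Klrb1c (2.47). The split is a coarse one, since cells without a thinned Vwf UMI still had Vwf at 36.7 CPM in their full counts.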

How the data were processed

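A 10x Genomics Chromium 3′ (v3.1) library of sorted progenitors was sequenced by the study, and the authors made the deposited counts, whole UMIs per gene and cell barcode, with Cell Ranger 6.0.2 on mm10; the labels' extraction protocol names a bulk RNA kit instead. Barcodes were kept by the filter the study states: more than 1000 genes but fewer than 6500, a UMI total between 1000 and 50000, and a mitochondrial share below 7%. Scrublet (scanpy 1.11.5) marked 265 barcodes as doublets; these were left in, and removed in an alternative. Cells were clustered with Seurat 5.3.0 (SCTransform on 3000 genes, 50 components, resolution 0.8), with the 10 members and Procr left out of the components. A cluster took a marker list's name where the list's mean log2 ratio to other cells was at least 0.5, at least 3 markers were raised 1.5-fold, its 10 leading genes held more of its own markers than of any other list, and at most 20% of its cells were doublet calls.

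Counts were summed over cells and given as CPM with exact Poisson intervals, ratios with exact conditional binomial intervals and shares with Clopper-Pearson intervals, all at 95% and for counting error only. Intervals of a ratio of 2 onset indices used the normal approximation on the log scale. Each cell was thinned to 5000 UMIs (seed 1), and 99 of 7645 cells were too shallow. Genes with under 50 UMIs in a comparison were left out of counts; a count of 0 was bounded by 3 UMIs. The scripts were tested on simulated data. The members, lists and tests were chosen with earlier results of these data known. Named genes were the members, the 3 highest and 3 lowest folds of 4 fixed lists, the 5 genes most like the summed members over clusters among those reaching 50 CPM in a cluster, and the 5 non-members of highest fold in the Vwf split; Procr-positive cells were to be taken from a cluster named HSC-like, and since none was, from the cluster with the highest mean of the stem cell markers. Further genes were named as checks of a cell type or as partners of a member. Some genes that this rule named are not reported here.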

Additional observations from a re-analysis of the deposited data

Results flagged for a closer look

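Barcodes outside the cell filter were not used above, and they held signal of the members. The 213 barcodes at or above the upper limits on UMIs or genes (median 54247 UMIs) had Pf4 at 569 CPM (555 to 582), 1.29 times the level in kept cells, and 18 of them (8.45%, 5.08 to 13) had at least 2000 CPM of Pf4, against 429 of 7645 kept cells (5.61%, 5.11 to 6.15). Vwf (28.4 CPM) and Gp5 (22.1 CPM) were 1.12 times (1.0 to 1.26) and 1.42 times (1.25 to 1.61) the kept level in these barcodes, while Itga2b (52.6 CPM) stood at 0.79 times (0.73 to 0.86). Among 909 barcodes at or above the mitochondrial limit (median 2407 UMIs), 11 (1.21%, 0.61 to 2.15) had at least 2000 CPM of Pf4. Large megakaryocytes and doublets both give many UMIs, and which of them these barcodes hold was not tested.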

How the results depend on the processing

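No paired analysis was possible because there is 1 library. The number of members highest in megakaryocyte-like cells (9, or 10 under the stricter cell filter) and the number 2-fold or more higher there (9) held under doublet removal, the stricter filter, resolutions 0.4 and 1.2 and log-normalised clustering. The pooled onset index of 17.7% became 35.7% with 2 to 4 against 10 or more Pf4 UMIs, 15.6% with 1 to 4 against 20 or more, 20.8% without myeloid and lymphoid classes, 7.26% on the axis of 13 other markers and 21.7% as a mean over cells. It became 42.3% in megakaryocyte-like cells alone and 14.2% after subtracting the level in cells without Pf4, both chosen after seeing the data. Of the 8 members other than Pf4 and Gp6, Gp9 had the highest value and Ppbp the lowest in each of these settings, though on the axis of other markers Ppbp was not separable from Gp1bb, Treml1 or Vwf. The places of the members between Gp9 and Ppbp varied with the setting. The share of Procr-positive stem-marker cells with a member was 73.4%, and 86.6% without thinning; Procr-positive cells with an Hlf or Mecom UMI, chosen without clusters, gave 65.3%. The number of members 1.5-fold or more higher with Vwf was 0, and 2 under the stricter filter (61 Vwf-positive cells), 1 without thinning and 5 in the cells with Hlf or Mecom, a set that takes in other clusters. The share of all genes that passed is given only for the main split (2.63%), so the other counts cannot be set against a background. The Vwf fold of Pf4, 1.40, became 0.52 with log-normalised clustering and 0.49 with thinning seed 2. In the main split 1 cell held 66 of the 105 Pf4 UMIs on the Vwf-positive side. Of all values for single genes, 48 of 90 onset indices, 79 of 90 shares and 56 of 64 Vwf folds stayed within the counting interval, and the 2 Vwf folds that changed direction were those of Pf4. Depth limits Gp6, Ppbp and Gp1bb most: in Procr-positive cells they gave 0, 3 and 5 UMIs.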

Other observations

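Within the 934 megakaryocyte-like cells that could be thinned, a UMI of Treml1, the gene of a granule membrane receptor, went with the other members more than a UMI of Gp9 did; this pair was chosen after its values were seen, and the difference between the genes was not tested. Of 265 cells with Treml1, 89.8% had Pf4 (85.5 to 93.2) against 61.6% of cells without it, 47.5% had Gp5 (41.4 to 53.7) against 25.7%, and 11.7% had Ppbp (8.09 to 16.2) against 3.74%. Of 318 cells with Gp9, 79.2% had Pf4 (74.4 to 83.6) against 64.6% without, 38.1% had Gp5 (32.7 to 43.6) against 28.7%, and 6.29% had Ppbp (3.88 to 9.55) against 5.84%. Of 56 cells with a Ppbp UMI, 92.9% had Pf4, 96.4% had Itga2b and 55.4% had Treml1.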
